A study of Mus musculus with 4 samples.

Results

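The pore-forming alpha-1 subunits of voltage-gated calcium channels were examined as loci for the homeodomain transcription factor NKX2.2 in alphaTC6, a mouse line of glucagon-producing pancreatic alpha cells. The 9 genes were chosen by name (Cacna1a, Cacna1b, Cacna1c, Cacna1d, Cacna1e, Cacna1g, Cacna1h, Cacna1i and Cacna1s), out of 21887 protein-coding genes, and the choice was made with results of these data known. The peak summits described below are the ones lying in a gene or within 10 kb of it. Chromatin immunoprecipitation with an anti-NKX2.2 antibody (ChIP-seq) and input DNA, which had no enrichment, were sequenced from 2 samples each of cells labelled WT, with no treatment named in the labels. The data are 1 list of 7384 summits for the whole series, each the base of highest enrichment in a peak, with a deposited score from the authors' peak calling. The score is taken here as the −log10 q-value of ChIP against input that MACS2 writes to such files, which the labels do not state. The list has no value per library, so depth is unknown, no value below has a replicate error, and no difference below was tested across samples. It also has no expression values, so the labelled cell type was not checked against marker genes and the activity of the channel genes was not analysed here.

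Voltage-gated calcium channels open when the membrane depolarises and let calcium into the cell, and in endocrine cells this calcium triggers fusion of hormone granules. The alpha-1 subunit forms the pore and holds the voltage sensor, and it sets the channel's class. The Cav1 genes encode L-type pores: Cacna1c and Cacna1d those of heart, neurons and islet cells, and Cacna1s that of skeletal muscle. In the Cav2 subfamily, Cacna1a encodes the P/Q-type pore, Cacna1b the N-type pore and Cacna1e the R-type pore, all known for transmitter and hormone release. The Cav3 genes, Cacna1g, Cacna1h and Cacna1i, encode T-type pores, which open at more negative voltages. Auxiliary beta and alpha-2-delta subunits bring the pore to the membrane and adjust its gating.

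A summit was present at 6 of the 9 alpha-1 genes, with 17 summits in all, 15 of them inside the gene and 2 outside within 10 kb. Across all protein-coding genes 25.8% had at least 1 summit. Genes of this size have summits more often, and the shares among the 200 genes nearest in length to each member add up to 3.57 of 9 genes. The mean numbers of summits in these length neighbours add up to 6.78, so the 17 summits were 2.51 times that number. Cacna1c alone held 9 of the 17 summits, 52.9%, and 2 of the 9 also lie inside an overlapping gene, Dcp1b. Without Cacna1c the other 8 genes had 8 summits against 5.70 in genes of similar length, a ratio of 1.40. Most of the difference from genes of similar length therefore lay at a single gene.

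**Figure D1:**
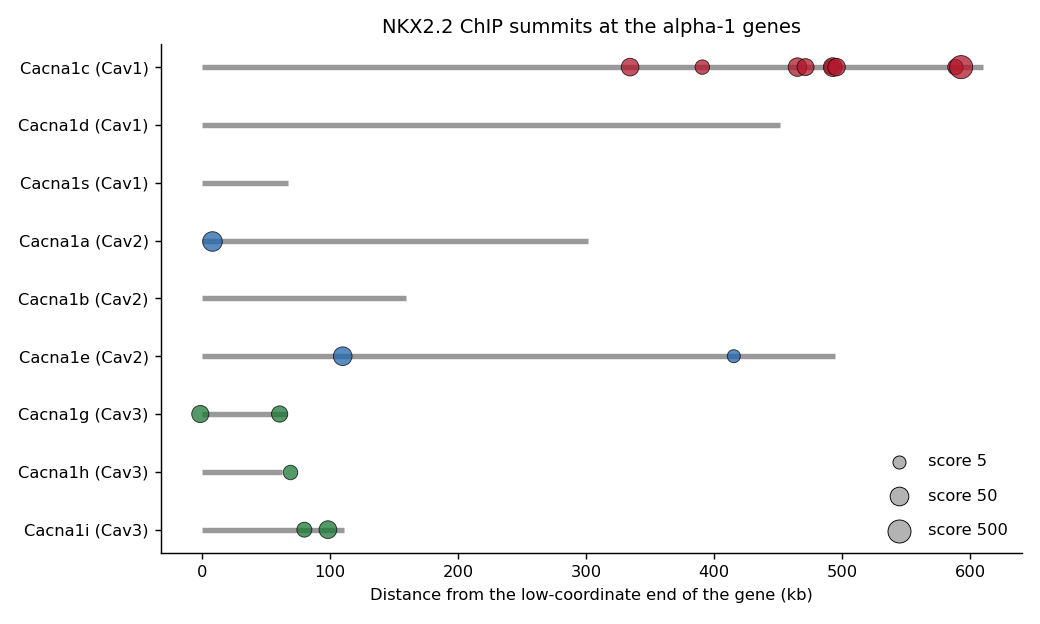
Summits along the 9 alpha-1 genes. Grey bars are the genes, drawn in kb from the end with the lower coordinate, and each circle is a summit with its area rising with the log of its score; Cacna1c has 9 circles towards its high-coordinate end, and Cacna1b, Cacna1d and Cacna1s have none.

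The sequence upstream of the annotated starts is shown first. RefSeq promoter windows (GRCm38.p6, from 250 bases before a gene start to 50 after it) were at hand for 6 of the 9 genes, 9 windows in all, with 3 starts for Cacna1c and 2 for Cacna1d. Cacna1a, Cacna1g and Cacna1h had no entry. A summit lay inside 0 of these 9 windows and inside 4.94% of all 32851 windows. With a share that low, 0 among 9 windows does not set the alpha-1 genes apart. The 250 bases before each start were searched on both strands for AAGTG, the core of the site that NK2 homeodomains bind, for the longer form TNAAGTG that contains it, and for GGGNGTGG, letters of the type bound by Krüppel-like factors, a family whose member KLF4 is named beside NKX2.2 in the study's title. AAGTG was in 0 of the 9 windows and in 40.7% of all windows. TNAAGTG was in 0 of the 9 and in 10.1% of all. GGGNGTGG was in 3 of the 9 and in 15.9% of all. The 3 were 1 window each of Cacna1b, Cacna1d and Cacna1s, the genes without a summit. Among genes with a summit, Cacna1a, Cacna1g and Cacna1h had no window to search. Matches and summits therefore cannot be compared over all 9 genes. The 3 windows with a match were 62.4% to 86.4% G or C, and the other windows 39.6% to 82.8%. Whether base composition has a part in the match counts was not tested. A match describes letters only, and the absence of a match says only that the letters are not in the window.

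The following 5 windows are the 3 with GGGNGTGG, in capitals as read on the gene's strand, and the 2 Cacna1c starts nearest to its summits, which hold none of the searched letters. Each is the 250 bases before the start, 5′ to 3′.
Cacna1b, chr2:24763153-24763402, minus strand: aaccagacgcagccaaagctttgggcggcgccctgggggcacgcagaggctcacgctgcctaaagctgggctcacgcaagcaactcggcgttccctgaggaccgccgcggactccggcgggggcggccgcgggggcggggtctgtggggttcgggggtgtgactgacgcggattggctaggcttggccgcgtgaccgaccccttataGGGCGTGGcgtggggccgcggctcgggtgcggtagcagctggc
Cacna1d, second start, chr14:30353487-30353736, minus strand: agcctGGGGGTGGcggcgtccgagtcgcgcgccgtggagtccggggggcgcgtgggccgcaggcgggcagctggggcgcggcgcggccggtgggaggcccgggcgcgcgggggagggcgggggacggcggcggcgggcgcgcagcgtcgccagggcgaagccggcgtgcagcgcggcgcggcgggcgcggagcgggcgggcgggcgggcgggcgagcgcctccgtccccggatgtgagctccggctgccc
Cacna1s, chr1:136052561-136052810, plus strand: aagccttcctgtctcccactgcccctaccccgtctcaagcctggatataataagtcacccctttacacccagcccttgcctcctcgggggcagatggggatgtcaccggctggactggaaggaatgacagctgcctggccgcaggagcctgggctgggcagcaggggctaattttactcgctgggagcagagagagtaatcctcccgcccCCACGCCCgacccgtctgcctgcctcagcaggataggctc
Cacna1c, first start, chr6:119196410-119196659, minus strand: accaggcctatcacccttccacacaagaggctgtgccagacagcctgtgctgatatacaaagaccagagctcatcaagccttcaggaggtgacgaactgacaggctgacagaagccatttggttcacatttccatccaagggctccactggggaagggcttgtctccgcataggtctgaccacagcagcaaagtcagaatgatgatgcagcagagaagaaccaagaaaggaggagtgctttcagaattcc
Cacna1c, second start, chr6:119108496-119108745, minus strand: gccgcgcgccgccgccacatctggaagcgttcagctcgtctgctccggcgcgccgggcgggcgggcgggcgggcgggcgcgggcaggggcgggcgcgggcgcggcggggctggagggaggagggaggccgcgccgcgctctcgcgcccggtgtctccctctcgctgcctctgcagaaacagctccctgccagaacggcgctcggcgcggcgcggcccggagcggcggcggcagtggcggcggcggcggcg
The match at Cacna1s is CCACGCCC, which reads as GGGNGTGG on the opposite strand, and it begins 40 bases before the start. At Cacna1b the match is GGGCGTGG, 43 bases before the start. At Cacna1d it is GGGGGTGG, 245 bases before the start. The windows differ widely in base composition. The second starts of Cacna1d and Cacna1c were 86.4% and 82.8% G or C, with 50 and 48 CG pairs. The first start of Cacna1c was 51.6% G or C with 2 CG pairs, close to the median of 52.4% over all windows.

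Cacna1c (gene ID 12288) encodes the pore of the L-type channel of heart, smooth muscle, neurons and islet cells. It spans 610 kb on chromosome 6, from 118587240 to 119197384, on the minus strand, so that transcription runs from high to low coordinates. None of the 200 genes nearest to it in length, which span 436 to 855 kb, had as many summits as its 9. Their mean was 1.08 ± 1.59 (SD over 200 genes), their maximum was 7, and 48.0% of them had at least 1 summit. Over the genome 8 genes, 0.0366%, had 9 or more summits. Outside the alpha-1 genes, the genes nearest in length to Cacna1c with at least 9 summits were Dpp6 (910 kb, 9 summits), Wwox (913 kb, 9 summits) and Rere (340 kb, 9 summits). Dpp6 encodes an accessory subunit of voltage-gated potassium channels. The highest scores at these 3 genes were 74.1, 48.1 and 32.6.

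The highest summit inside Cacna1c lay at position 119180075, with a score of 537 and rank 27 of the list. It was 16.3 kb downstream of the first Cacna1c start. A second summit, at 119175607 with a score of 12.0, lay 4.47 kb from it and 20.8 kb downstream of the start. Both lie also inside another gene. Dcp1b, which encodes an mRNA decapping factor, runs on the plus strand from 119175253 to 119221614 and overlaps the first 22.1 kb of Cacna1c. Measured from the Dcp1b start, the weaker summit was 354 bp and the stronger 4.82 kb downstream. Position alone cannot assign either summit to Cacna1c or to Dcp1b. With both left aside, Cacna1c had 7 summits, more than 199 of its 200 length neighbours and equal to 1 of them. Its highest score became 49.9, a value that 16 of the 200 neighbours exceeded and that lies below the 74.1 at Dpp6. Of these 200 neighbours 96 had any summit to score. The neighbours kept all their summits, also those inside an overlapping gene.

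The other 7 summits lay deep inside Cacna1c, away from any protein-coding gene boundary by 92.5 to 254 kb. A group of 5 stood within 30.5 kb, from 119052253 to 119082782, and downstream of the second start. In the direction of transcription the first was at 119082782, 25.7 kb from that start, with a score of 29.0. The next pair, at 119079784 and 119079103, was 681 bp apart and had scores of 49.9 and 9.61. Then came 119058578 with a score of 22.2 and 119052253 with a score of 45.8, 49.9 and 56.2 kb from the start. The group thus holds summits from rank 892 to rank 4924 of the list, and its members nearest to each other, 681 bp apart, are the highest and the lowest of the 5. Further into the gene, the summit at 118977926 had a score of 8.17 and lay within the long noncoding RNA gene Gm50599. The last, at 118921526, had a score of 31.2 and was 164 kb upstream of the third annotated start. No summit lay in the low-coordinate part of the gene, over the 334 kb that follow it.

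Cacna1d (gene ID 12289), the other L-type pore known from islet cells, had no summit. It spans 451 kb on chromosome 14, from 30039941 to 30491156. The nearest summit was 71.7 kb away, at 29968253, with a score of 8.98. Of its 200 length neighbours 44.5% had a summit, and their mean was 1.06 ± 1.59 (SD over 200 genes), so a gene of this length without a summit was in the majority, as 111 of the 200 had none. Chromosome 14 had few summits altogether. It held 76, and 6.46% of its protein-coding genes had one, against 34.2% on chromosome 6, which carries Cacna1c. Among the 50 genes nearest in length on chromosome 14, 11 had a summit. Whether the low number on the chromosome has a part in the empty Cacna1d locus was not tested. An uncalled peak also sets no limit on binding here, since the depth is unknown.

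Cacna1s (gene ID 12292), the skeletal muscle L-type pore, was also without a summit, and the nearest lay 296 kb away with a score of 162. It spans 67.0 kb on chromosome 1, from 136052806 to 136119822. Of its length neighbours 32.0% had a summit. All 9 Cav1 summits were thus those counted at Cacna1c, against 2.62 from the length neighbours of the 3 Cav1 genes. Of the 9, 2 also lie inside Dcp1b and 7 do not.

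In the Cav2 subfamily 2 of 3 genes had a summit, with 3 summits in all against 2.75 from genes of similar length. Cacna1a (gene ID 12286), the P/Q-type pore, spans 302 kb on chromosome 8, from 84338631 to 84640251. Its 1 summit, at 84346654, was inside the gene, 8.02 kb from the low-coordinate end, with a score of 77.6 and rank 496. Among the 17 summits only that of 537 inside both Cacna1c and Dcp1b scored higher. In number Cacna1a did not stand apart, as its length neighbours had a mean of 1.02 ± 1.52 (SD over 200 genes) and 48.0% had a summit. In score, 15 of these 200 genes, of which 96 had a summit, had a higher one.

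Cacna1e (gene ID 12290), the R-type pore, spans 494 kb on chromosome 1, from 154390806 to 154884785. It had 2 summits, both inside. The stronger, at 154500646, had a score of 49.5 and lay 225 kb downstream of the annotated start on the minus strand. The weaker, at 154806084, had a score of 4.94, the lowest at any alpha-1 gene, and lay 80.2 kb upstream of that start but within the span of the gene. Of 200 length neighbours 151 had fewer than 2 summits and 32 had more, and 46.0% had at least 1. Cacna1b (gene ID 12287), the N-type pore, spans 159 kb on chromosome 2, from 24603860 to 24763200, and had no summit. Its nearest summit was 291 kb away, at 25054426, with a score of 4.37. Among its length neighbours 40.0% had a summit.

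Each of the 3 T-type genes of the Cav3 subfamily had a summit within 10 kb, but Cacna1h had 0 in the gene body, within 5 kb or at a score of at least 10. Together they held 5 summits, against 1.40 from genes of similar length. Cacna1g (gene ID 12291) spans 66.0 kb on chromosome 11, from 94408391 to 94474400. One summit, at 94407025, lay 1.37 kb outside its low-coordinate end with a score of 24.6. The other, at 94468963, lay inside, 5.44 kb from the high-coordinate end, with a score of 16.5. This second summit was also 9.94 kb from the neighbouring gene Spata20. Of its length neighbours 181 had fewer summits and 7 had more, and 35.0% had at least 1.

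Cacna1i (gene ID 239556) spans 111 kb on chromosome 15, from 80287238 to 80398292, on the plus strand. Its 2 summits lay in the far part of the gene, 79.9 and 98.3 kb downstream of the start. The first, at 80367136, had a score of 9.99, and the second, at 80385546, a score of 31.9. Of its length neighbours 176 had fewer summits, 10 had more, and 35.0% had at least 1. Among the 50 genes nearest in length on chromosome 15, 38 had fewer, 6 had more and 23 had at least 1. Cacna1h (gene ID 58226) spans 62.0 kb on chromosome 17, from 25374285 to 25436334, and had no summit inside. Its 1 summit, at 25443124, lay 6.79 kb beyond the high-coordinate end with a score of 8.30, and 28.5% of its length neighbours had a summit. This was the summit farthest from a member among those counted. The nearest summits not counted lay 32.2 kb from Cacna1i (score 8.02) and 42.8 kb from Cacna1g (score 15.0).

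**Figure D2:**
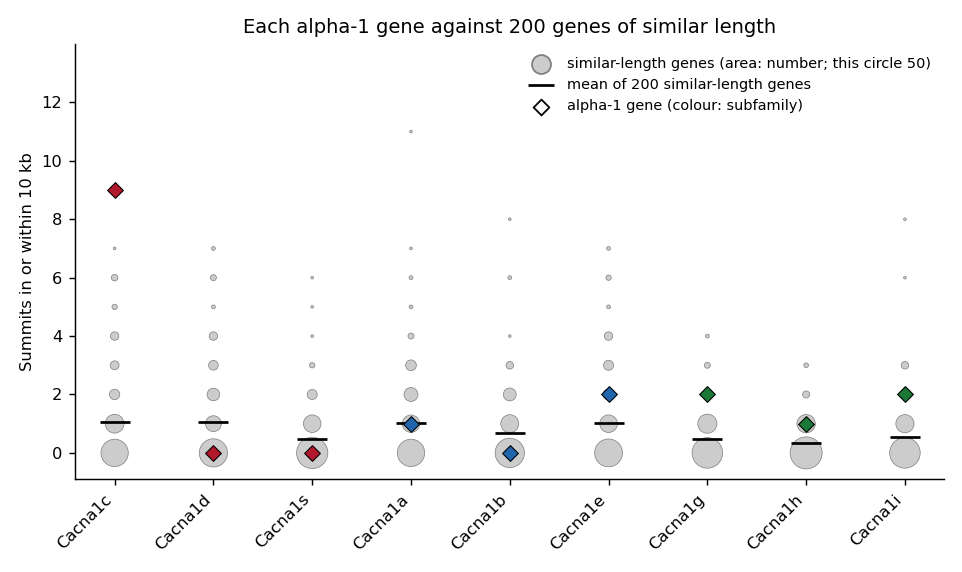
Number of summits at each alpha-1 gene (diamonds, coloured by subfamily) over the numbers in its 200 length neighbours (grey circles, area proportional to the number of genes; black dashes, their mean). The diamond of Cacna1c, at 9, is above all circles of its column, while Cacna1b, Cacna1d and Cacna1s lie at 0 with most of their neighbours.

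Scores at the alpha-1 genes ran from 4.94 to 537 with a median of 24.6. The whole list ran from 2.03 to 1648 with a median of 13.7, and summits at the 1364 length neighbours of the 9 genes had a median of 14.5. Of the 17 summits 11 scored above the list's median and 6 below it. Scores of 30 or more were found at 7 of the 17, 41.2%, and at 22.6% of all placed summits. The cut of 30 lies between the member scores 29.0 and 31.2, and the contrast depends on it. Of the 17 only 537 and 77.6 exceeded 49.9, a score higher than 87.9% of placed summits. The medians were 29.0 at the Cav1 gene Cacna1c, 49.5 at the 3 Cav2 summits and 16.5 at the 5 Cav3 summits. These ranges overlapped, with 8.17 to 537, 4.94 to 77.6 and 8.30 to 31.9. The highest score, 537, was that of the summit inside both Cacna1c and Dcp1b, followed by 77.6 at Cacna1a, 49.9 at Cacna1c and 49.5 at Cacna1e.

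**Figure D3:**
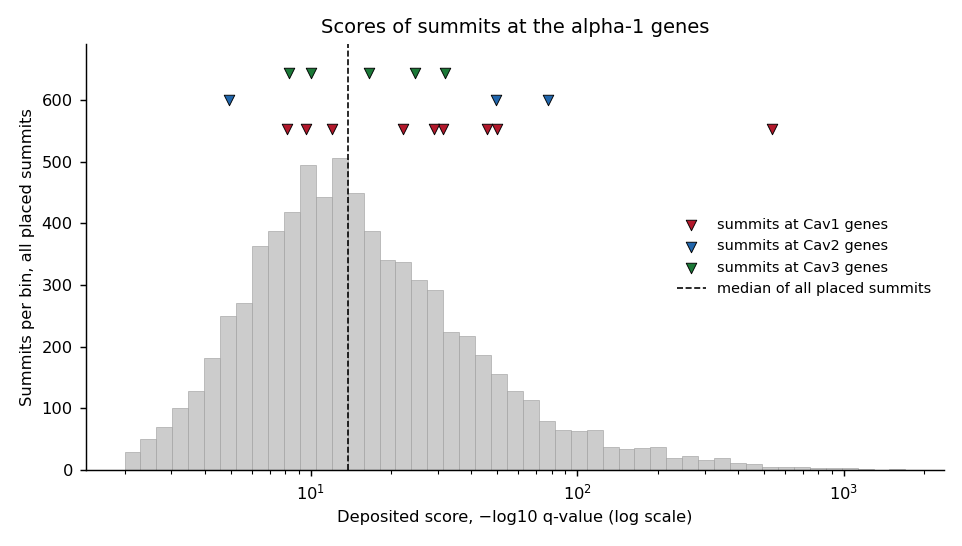
Scores of the 17 summits at alpha-1 genes (triangles, a row for each subfamily) above the distribution of all placed summits (grey bars; dashed line, median). The axis of the deposited score is logarithmic. The summit at 537, inside both Cacna1c and Dcp1b, stands to the right of the other 16, which lie between 4.94 and 77.6.

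The summits at alpha-1 genes were mostly distant from gene boundaries. Within 1 kb of either end of a protein-coding gene lay 1 of the 17, 5.88% (95% Wilson interval 1.05% to 27.0%), and that boundary was the start of Dcp1b. Among all placed summits the share was 29.2%. Among the 975 summits at the length neighbours it was 16.1% (13.9% to 18.5%, same method). Long genes thus have a lower share in general, and the interval for the alpha-1 genes includes that value. The intervals cover counting error only and treat summits as independent. Of the 17 summits 9 were at Cacna1c, 5 of them within 30.5 kb, so the interval for the alpha-1 genes is likely too narrow. The comparison of shares is a description and not a test.

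The partners of the pore were described in the same way, from lists of gene names by role. Of the 4 alpha-2-delta genes, which encode subunits that raise the number of channels at the surface, 3 had a summit, and 1.70 would follow from their lengths. Cacna2d2 had 3 summits with scores of 226, 21.9 and 7.85, the highest at position 107453276 of chromosome 9 inside the gene. Among the channel subunit genes described, only the summit of 537 inside both Cacna1c and Dcp1b scored higher, and without it the 226 at Cacna2d2 was the highest. Cacna2d1 had 3 summits with scores of 18.0, 14.3 and 9.92, and Cacna2d4 had 1 with a score of 8.03. Cacna2d3, on chromosome 14 like Cacna1d, had none over its 818 kb. Of the 4 beta subunit genes, only Cacnb4 had a summit, with a score of 5.78, against 1.49 genes from length.

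Of the 8 genes named as gamma subunits (Cacng) 2 had a summit, against 2.42 from length: Cacng5 (score 8.51) and Cacng7 (score 6.33). The Cacng7 summit lay outside the gene, within 10 kb. The list follows gene names, and whether each product is a subunit of calcium channels was not examined. Of the 7 genes for RGK proteins, small GTP-binding inhibitors of these channels, and for STAC adaptors, 2 had a summit, against 1.80: Stac3 (score 27.6) and Stac2 (score 2.28). Both summits lay outside the gene, within 10 kb. Of the 5 active zone genes, whose products tether calcium channels to release sites, 3 had a summit, against 2.23. Rimbp2 had 5 summits with scores from 6.10 to 30.5, more than 198 of its 200 length neighbours. Rims2 had 3 with a highest score of 45.3, Erc1 had 1 with a score of 27.6, and Rims1 and Erc2 had none. The highest summit of Rimbp2 and the summit of Erc1 lay outside those genes, within 10 kb. Whether the summits outside partner genes belong to neighbouring genes was not examined. Of the 10 genes for sodium channel pores and the leak channel Nalcn, relatives of the alpha-1 genes, only Scn10a had a summit (score 7.60), against 3.77 from length. Cacna1f, the alpha-1 gene of the retinal L-type channel on the X chromosome, is outside the 9 genes and had no summit; 4.87% of the protein-coding genes on the X chromosome had one. Differences between these lists were not tested.

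**Figure D4:**
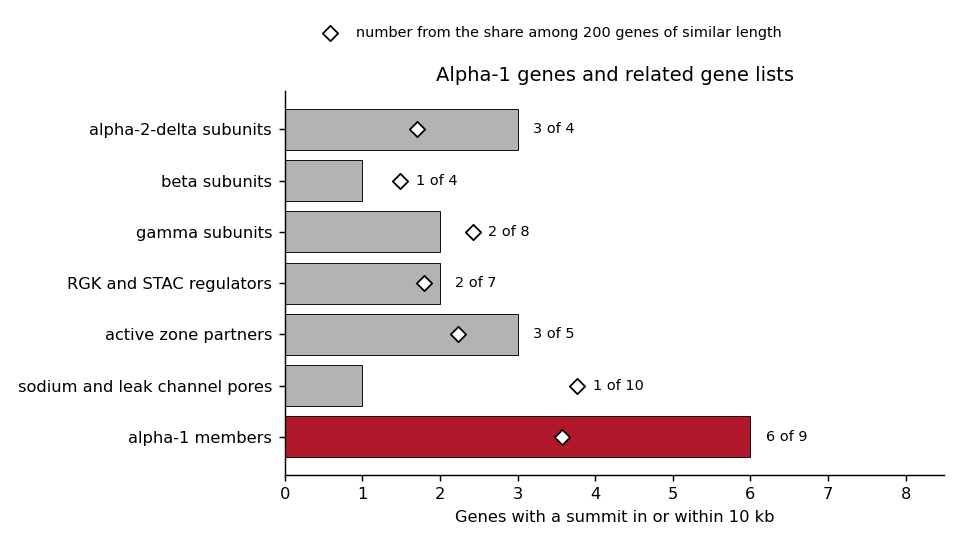
Number of genes with a summit in the alpha-1 genes (red) and the 6 related lists (grey bars), with the number that the share among 200 genes of similar length gives (white diamonds). The bar of the alpha-1 genes reaches 6 with its diamond at 3.57, and that of the sodium and leak channel pores reaches 1 with its diamond at 3.77.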

How the data were processed

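ChIP with an NKX2.2 antibody and input were sequenced in 2 samples each, with groups taken from the titles. Per the labels' design text, MACS2 was the peak caller; FastQC, Bowtie2 and the build mm10 (GRCm38) are named in the submitters' processing notes. The deposited list gives, per summit, a score taken as the −log10 q-value that MACS2 writes; the authors' lowest score corresponds to a q-value of 0.00938. Tool versions and the pooling of replicates before peak calling are not given in the sources used here.

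The members and gene lists were chosen with earlier results of these data known. Summit positions were counted from 1 (start plus 1) and compared with RefSeq genes of GRCm38.p6; 4 of 7384 summits, on contigs outside the chromosomes, were left out. Each gene was set beside the 200 protein-coding genes nearest in length (log scale), members left out. No significance test was made. Named genes are the 9 members, up to 5 genes with a summit from each list, the 3 genes nearest in length to Cacna1c with as many summits, and genes within 10 kb of a member summit; genes named as having no summit were chosen after their values were seen. Motifs were searched only in promoter windows, the only sequence used here, cut to the 250 bases before the start. The planned protein comparison was not made. Counting functions were tested on simulated data. Alternatives covered score, distance, merging and length matching. Versions were scipy 1.17.1, pandas 2.3.3, numpy 2.4.6 and matplotlib 3.10.9 under Python 3.11.15.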

Additional observations from a re-analysis of the deposited data

How the results depend on the processing

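No paired analysis was possible because single replicates have no values of their own in the data, and none could be left out in turn. Under the alternatives to score minimum, distance and merging, 5 or 6 of the 9 alpha-1 genes had a summit, and the summits numbered 12 (score of at least 10) to 19 (50 kb around genes). The ratio to genes of similar length ran from 2.01 (50 kb) to 2.68 (score of at least 10). With 50 length neighbours on the same chromosome it was 2.49. The share of neighbours with fewer summits was then lower for Cacna1i (76.0% against 88.0%), Cacna1e (68.0% against 75.5%) and Cacna1c (98.0% against 100%). It was higher for Cacna1g (94.0% against 90.5%) and Cacna1h (74.0% against 71.5%). Without Cacna1c, left out after seeing the data, 8 summits remained and the ratio was 1.40, and without the summits inside Dcp1b, also chosen after seeing the data, there were 15 and 2.21. Of 54 counts for single genes 7 moved by over 1.5 times. Cacna1h had 0 summits in the gene body, within 5 kb and at a score of at least 10. Cacna1e had 1 at a score of at least 5 or 10, Cacna1i had 1 at 10, and Cacna1g had 1 in the gene body. The wider motif window was not run, as no genome sequence was used here. With depth unknown, a locus without a summit is only one where no peak was called.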

Other observations

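The group of 5 summits within 30.5 kb inside Cacna1c was set beside the rest of the list, after it had been seen. Runs of 5 summits at that spacing or closer held 115 of the placed summits, 1.56%, in 20 places. Of the 73 protein-coding genes with 5 or more summits, 11 had such a run in or within 10 kb, 15.1%. Cacna1c is among the 11 by definition, because its own span set the cut. None of its 200 length neighbours had such a run, but only a gene with 5 or more summits can have one. The neighbours had a mean of 1.08 summits and a maximum of 7, and how many had 5 or more was not counted. Their lack of a run therefore cannot be read as a difference in spacing.

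Cacna1c and the alpha-2-delta gene Cacna2d4 lie on chromosome 6, where 34.2% of the protein-coding genes had a summit, while Cacna1d, Cacna2d3, Erc2, Nalcn and Rem2 lie on chromosome 14, where 6.46% had one. None of these 5 genes on chromosome 14 had a summit. Set beside the 50 genes nearest in length on chromosome 6, Cacna1c had more summits than 49 and as many as 1, and the mean of the 50 was 1.82.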
